A study of Caenorhabditis elegans with 12 samples.

Results

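The *fbxa* genes are the nematode family of F-box A genes. They were taken here as every gene whose symbol is *fbxa* followed by a number in both deposited tables. There were 160 such genes, measured by 170 probe sets, of 17675 genes and 21541 probe sets on the Affymetrix *C. elegans* Genome array. The study profiled RNA from *lin-54* mutant and wild-type animals, in embryos and in dissected germlines; *lin-54* encodes a DNA-binding subunit of the DRM (DP, Rb and MuvB) transcription complex. The embryo groups were *lin-54(n2990)*, a missense allele with partial loss of function, and wild-type N2, both grown at 25°C and collected by bleaching young adults, so that each sample mixed embryonic ages. The germline groups were *lin-54(n3423)*, a deletion allele, and wild-type N2, both grown at 20°C and dissected 24 hours after the L4 stage to span the mitotic tip through late pachytene. Each group had 3 arrays. Tissue thus differed together with allele, temperature and labelling kit, and the germline RNA alone was linearly amplified before labelling. The study's methods call these biological replicates, and p-values measure the spread between them.

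An F-box is a short protein motif that binds Skp1, called SKR proteins in *C. elegans*. Through Skp1 an F-box protein joins the SCF ubiquitin ligase, in which a cullin scaffold and a RING subunit bring the ubiquitin-conjugating enzyme to the substrate that the F-box protein holds. Nematode genomes carry far more F-box genes than vertebrate or yeast genomes, most of them in fast-evolving families, *fbxa*, *fbxb* and *fbxc* among them, that lie in clusters of related copies. The substrates of most FBXA proteins are not known, so for nearly all members below no individual role can be given. Related copies share sequence, and 19 of the 170 probe sets carry the suffix s_at and 6 the suffix x_at, which mark probes shared with other transcripts. The values of those 25 cannot be assigned to 1 gene with certainty.

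The targeted gene was read first. The *lin-54* probe set gave log2 values of 8.88, 8.14 and 8.18 in *lin-54(n3423)* germlines, absent by detection call on 3 of 3 arrays, against 9.68, 11.01 and 11.02 in wild-type germlines, present on 3 of 3. This is an s_at probe set, and whether it lies inside the *n3423* deletion was not checked. In embryos, where the missense allele need not alter the transcript, it gave 10.58, 10.67 and 10.34 in *lin-54(n2990)* and 10.17, 9.9997 and 10.15 in wild-type. Every mutant array thus lay above every wild-type array there, with a log2 change of 0.42 (SE 0.11; limma adjusted p = 0.119). All values here are RMA log2 values, so a difference of 1 is a 2-fold change. Between 10826 and 11985 probe sets were called present per embryo array and between 5954 and 8209 per germline array. In the germlines both arrays numbered 1 stood apart from the other 4: their correlations with those arrays over all probe sets lay between 0.910 and 0.935, while the 2 of them correlated at 0.975 with each other. Among the embryo arrays, *lin-54(n2990)* replicate 2 correlated at 0.928 to 0.944 with the wild-type arrays. Replicate 3 of *lin-54(n2990)* correlated at 0.988 to 0.989 with the wild-type arrays, at 0.991 with mutant replicate 1 and at 0.959 with mutant replicate 2. In the check of the tissues, 5 of 5 muscle markers on the array were expressed in the N2 embryos and 0 of 5 in the N2 germlines. Of 8 oocyte and eggshell genes, 7 were expressed in each, and of 10 germline markers 6 were expressed in the N2 embryos and 4 in the N2 germlines, where the other 6 lay between the limits and 0 were absent.

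The family was unevenly spread over the genome. Chromosome V held 70 members, 43.75% of the family against 24.7% of all genes on the array, and chromosome III held 45, 28.1% against 13.2%. Chromosomes II, X, I and IV held 17, 15, 7 and 6. The protein-coding genes and pseudogenes of the RefSeq annotation were ordered along each chromosome. Joining *fbxa* genes no more than 5 gene steps apart left 60 members alone and placed 100 in runs of 2 or more, the largest of 11 genes. RefSeq lists 137 of the 160 members as protein coding and 23 as pseudogenes.

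Most *fbxa* genes gave no detectable signal in either tissue. Following the study, each detection call was scored 1 for present, 0 for marginal and -1 for absent, the scores were summed over the 3 arrays of a group and averaged over the probe sets of a gene, and a gene above 1.5 was counted as expressed and one below -1.5 as absent. By this score 36 of 160 members were expressed in *lin-54(n2990)* embryos (22.5%) and 37 in wild-type embryos (23.1%). In germlines 25 were expressed in *lin-54(n3423)* (15.6%) and 34 in wild-type (21.25%). Over all genes, 43.8% were expressed in *lin-54(n2990)* embryos and 47.5% in wild-type embryos, and 23.8% in *lin-54(n3423)* germlines and 25.0% in wild-type germlines. The *fbxa* share thus lay well under that of all genes in embryos and close to it in wild-type germlines.

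Sister families were detected in another proportion. Of the 99 *fbxb* genes, whose products are also F-box proteins, the wild-type embryo expressed 72.7% and the wild-type germline 4.04%. Of the 42 *fbxc* genes the shares were 66.7% and 16.7%. The *bath* genes, which encode BTB and MATH domain adaptors for another cullin ligase, were expressed at 51.4% and 42.9%, and the *math* genes at 19.1% and 0%. The levels of the 2 tables were normalised separately and were not tested against each other.

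Across both wild-type tissues, 22 *fbxa* genes were expressed in embryos and germlines, 15 in embryos only, 12 in germlines only and 111 in neither, of which 91 were absent in both. Of the 34 members expressed in wild-type germlines, 12 (35.3%) were not expressed in wild-type embryos, against 343 of 4420 such genes (7.76%) over the whole array. The 12 were *fbxa-43*, *fbxa-63*, *fbxa-125*, *fbxa-129*, *fbxa-140*, *fbxa-145*, *fbxa-192*, *fbxa-197*, *fbxa-203*, *fbxa-211*, *fbxa-216* and *fbxa-218*. Of these, 6 were absent in wild-type embryos (3.75% of the family, against 0.781% of all genes), and the rest lay between the limits there. Among the 7 members on chromosome I, 6 were expressed in wild-type germlines and 1 in wild-type embryos. Among the 45 on chromosome III, 7 and 10 were expressed in these tissues, and among the 70 on chromosome V, 16 and 17. A run of 9 *fbxa* genes on chromosome II held a single expressed member, *fbxa-160*. Of the 23 pseudogenes in RefSeq, 5 were expressed in at least 1 wild-type tissue, *fbxa-46*, *fbxa-58*, *fbxa-91*, *fbxa-129* and *fbxa-203*.

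**Figure D1:**
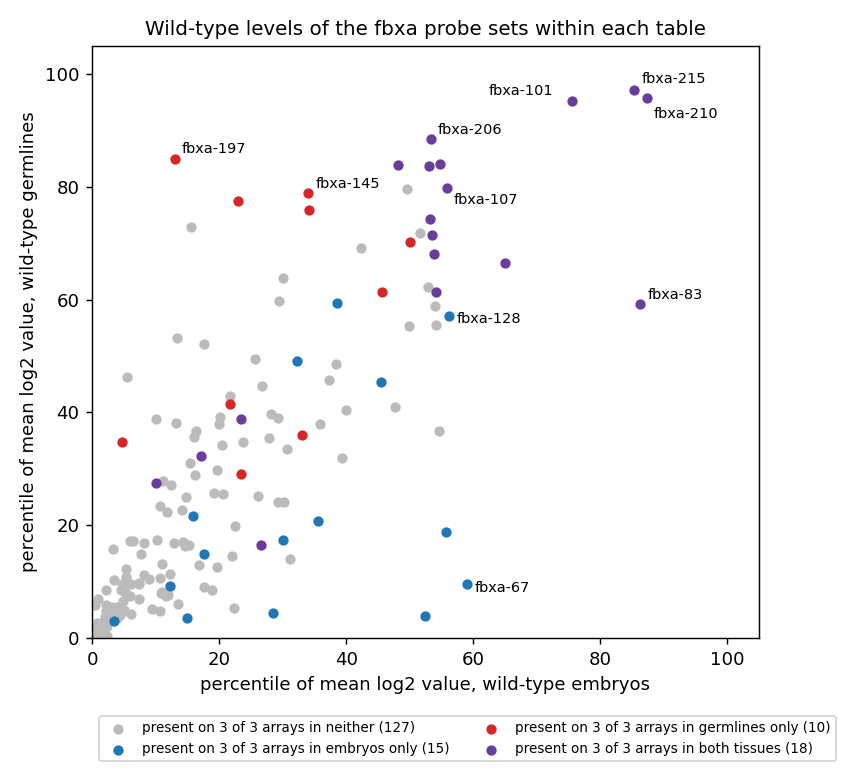
Each point is 1 of the 170 *fbxa* probe sets, placed by the percentile of its mean wild-type log2 value among all 21541 probe sets of the embryo table (x axis) and of the germline table (y axis), and coloured by the tissues in which all 3 wild-type arrays had a present call. The 18 probe sets present in both tissues include *fbxa-215*, *fbxa-210* and *fbxa-101* at the upper right, while *fbxa-197* lies at percentile 85.0 in germlines and is not called present in embryos.

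The levels of the detected members ranged widely. Probe sets bind with different strength, so a signal is not read here as more or less transcript than that of another gene. In wild-type embryos 33 probe sets were called present on 3 of 3 arrays. The 8 with the strongest signal were those of *fbxa-210* (10.28 ± 0.08, percentile 87.3 of all probe sets), *fbxa-83* (10.19 ± 0.26), *fbxa-215* (10.10 ± 0.18), *fbxa-101* (9.34 ± 0.15), *fbxa-153* (8.59 ± 0.18), *fbxa-67* (8.15 ± 0.18), *fbxa-128* (7.95 ± 0.28) and *fbxa-107* (7.92 ± 0.19; SD, n = 3 each). The mean ± SD ranges of the first 3 overlapped, as did those of the last 3. In wild-type germlines 28 probe sets were present on 3 of 3 arrays, led by *fbxa-215* (11.12 ± 0.66, percentile 97.2), *fbxa-210* (10.74 ± 0.44), *fbxa-101* (10.63 ± 0.23), *fbxa-206* (9.51 ± 0.13), *fbxa-197* (9.05 ± 0.09), *fbxa-108* (8.93 ± 0.33), *fbxa-114* (8.91 ± 0.07) and *fbxa-106* (8.88 ± 0.59; SD, n = 3 each). *fbxa-215*, *fbxa-210* and *fbxa-101* were among the 8 in both tissues, and *fbxa-206* was at percentile 88.5 in wild-type germlines and 53.3 in wild-type embryos. *fbxa-83* stood at percentile 59.2 in wild-type germlines and 86.3 in wild-type embryos.

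A small number of members, 7 *fbxa* genes, were called higher in *lin-54(n2990)* embryos than in wild-type, and 0 were called lower. A call required an unadjusted limma p of at most 0.01 and a change of at least 1.5-fold, the thresholds of the study. The 7 are 4.38% of the 160 members. Over all 17675 genes, 3.83% were called up and 1.69% down, so the share of *fbxa* genes called up was near the background. The 7 were *fbxa-206*, *fbxa-107*, *fbxa-215*, *fbxa-46*, *fbxa-101*, *fbxa-104* and *fbxa-210*. No member passed an adjusted p of 0.05: after Benjamini-Hochberg adjustment over all probe sets the smallest limma adjusted p in the family was 0.0784, and over the array 0.246% of probe sets passed upward and 0.0186% downward. At an unadjusted p of at most 0.05, with no fold limit, 24 members were higher and 5 lower, where 12.5% of all probe sets were higher and 12.9% lower. The mutant arrays lay wholly above the wild-type arrays at 31 of the 170 *fbxa* probe sets (18.2%, against 15.2% of all) and wholly below them at 8 (4.71%, against 17.6% of all).

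The largest change was that of *fbxa-206* on chromosome V. Its log2 values were 9.42, 9.75 and 8.71 in *lin-54(n2990)* embryos and 7.55, 7.96 and 7.73 in wild-type embryos. The groups did not overlap, and the lowest mutant array was replicate 3. The log2 change was 1.55 (SE 0.28), or 2.92-fold, with a limma adjusted p of 0.0906. Its probe set is an s_at set and was present on 6 of 6 arrays.

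*fbxa-107*, also on chromosome V, gave 9.44, 9.70 and 8.61 in *lin-54(n2990)* embryos and 7.83, 8.14 and 7.80 in wild-type embryos. The log2 change was 1.33 (SE 0.29), or 2.51-fold, with a limma adjusted p of 0.104. Its direct neighbour in the gene order, *fbxa-210*, gave 11.31, 11.19 and 10.65 in *lin-54(n2990)* embryos and 10.23, 10.37 and 10.25 in wild-type embryos, a change of 0.77 (SE 0.18; limma adjusted p = 0.112). The next gene along, *fbxa-211*, gave 6.45, 6.56 and 6.31 in *lin-54(n2990)* embryos and 5.98, 6.01 and 5.86 in wild-type embryos, a change of 0.49 (SE 0.09) that stayed under the fold threshold, and it was called present on 1 of these 6 arrays. All 3 genes of this run had mutant arrays wholly above the wild-type ones, and all 3 were expressed in wild-type germlines.

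*fbxa-215* on chromosome IV gave 11.38, 11.57 and 10.71 in *lin-54(n2990)* embryos against 9.90, 10.13 and 10.27 in wild-type embryos, a change of 1.12 (SE 0.24; limma adjusted p = 0.102). *fbxa-101* on chromosome I gave 10.33, 10.47 and 9.86 in *lin-54(n2990)* embryos against 9.28, 9.51 and 9.22 in wild-type embryos, a change of 0.88 (SE 0.18; limma adjusted p = 0.0981). Both were present on 6 of 6 arrays, and both are read by s_at probe sets.

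*fbxa-46* on chromosome X, which RefSeq lists as a pseudogene, had the smallest p of the family. It gave 7.34, 7.56 and 7.10 in *lin-54(n2990)* embryos and 6.56, 6.198 and 6.09 in wild-type embryos, a change of 1.05 (SE 0.17; limma adjusted p = 0.0784). It was present on 6 of 6 embryo arrays and absent on 6 of 6 germline arrays. *fbxa-104* on chromosome V gave 7.04, 7.52 and 6.76 in *lin-54(n2990)* embryos and 6.26, 6.26 and 6.46 in wild-type embryos, a change of 0.78 (SE 0.20; limma adjusted p = 0.117). Its probe set was called present on 0 of the 6 arrays, so that its change was measured at signals the detection call did not separate from background. With the replicate numbers as a block its limma adjusted p was 0.0987 and the call was lost.

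Members near the thresholds had like values. *fbxa-108* gave 8.45, 8.77 and 8.15 in *lin-54(n2990)* embryos and 7.79, 7.95 and 7.78 in wild-type embryos, a change of 0.62 (SE 0.17) whose limma p, 0.010034, was just over the limit (adjusted p = 0.123). *fbxa-181* gave 7.14, 7.72 and 6.56 in *lin-54(n2990)* embryos and 6.09, 6.41 and 6.004 in wild-type embryos, a change of 0.97 (SE 0.30). With the replicate block both were called up, at limma adjusted p-values of 0.0703 for *fbxa-108* and 0.0654 for *fbxa-181*, which brought the count to 8 up and 0 down, with 4.27% of all probe sets called up and 3.62% down in that fit. *fbxa-83* (0.58), *fbxa-103* (0.57) and *fbxa-114* (0.55) passed on p and fell short on fold. On the lower side *fbxa-79* came nearest at -0.55, on a probe set present on 0 of 6 arrays, and *fbxa-137* had -0.65 with values of 7.55, 6.21 and 7.999 in *lin-54(n2990)* embryos and 7.67, 8.03 and 8.03 in wild-type embryos, a spread that overlapped.

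**Figure D2:**
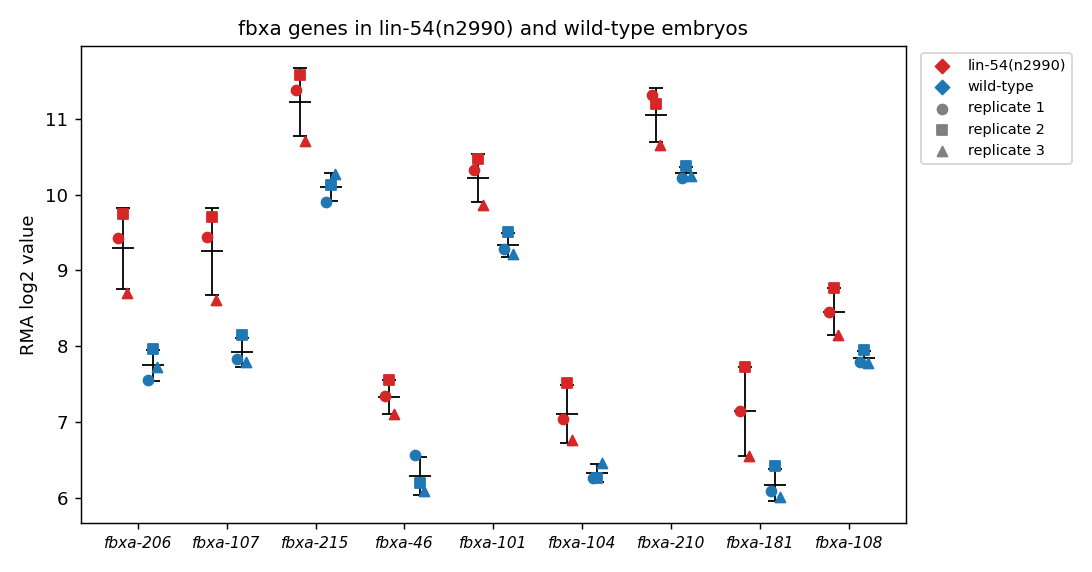
RMA log2 values of 9 *fbxa* genes in embryos, with *lin-54(n2990)* arrays in red and wild-type arrays in blue, marker shape giving the replicate number and bars the mean ± SD (n = 3). The first 7 genes are those called up and the last 2 were called only with the replicate block; in each of the 7 the lowest mutant array is replicate 3.

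Replicate 3 was the lowest of the *lin-54(n2990)* arrays in 7 of the 7 called genes, and replicate 2 was the highest in 6. This order was shared by lists of marker genes. The mean of 10 germline markers was 9.27, 9.60 and 8.80 on the *lin-54(n2990)* arrays and 8.33, 8.52 and 8.39 on the wild-type arrays. Of the 10, *glh-1* and *syp-1* were called up, and *fbf-1* and *glp-1* were absent in wild-type embryos. The mean of 8 oocyte and eggshell genes was 10.21, 10.78 and 9.25 on the mutant arrays and 8.71, 9.54 and 8.80 on the wild-type arrays, with 1 gene called up (*cpg-2*). The mean of 8 early zygotic genes was 8.80, 9.22 and 8.59 on the mutant arrays and 8.04, 8.36 and 8.19 on the wild-type arrays, with 2 called up. Muscle markers ran the other way, with 0 called down and means over 5 genes of 9.58, 8.52 and 9.89 on the mutant arrays and 10.37, 10.11 and 10.28 on the wild-type arrays. So did 6 neuronal markers at 8.84, 8.33 and 9.21 against 9.63, 9.32 and 9.66, with 1 called down (*egl-3*). Means over 5 late embryo cuticle genes were 9.96, 9.41 and 10.23 on the mutant arrays and 10.50, 10.30 and 10.53 on the wild-type arrays. Of these 5, 0 were called down and 2 were absent in wild-type embryos. The mutant mean minus the wild-type mean was -0.36 over 7 gut genes, with 1 called down (*asp-1*). It was -0.38 over 6 epidermis genes, with 0 called down. In bulk samples fewer cells of a type, less RNA per cell and another mix of embryonic ages cannot be told apart. The part of these shifts in the *fbxa* changes was not tested.

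The calls depended on which array was left out. *fbxa-46* and *fbxa-206* were called in each of the 6 fits that leave out 1 array. *fbxa-101*, *fbxa-107* and *fbxa-215* were called in 3 of the 6, and *fbxa-104* and *fbxa-210* in 1, that without *lin-54* replicate 3. Without that array 14 *fbxa* genes (8.75%) were called up, with 7.55% of all genes. Without *lin-54* replicate 1 the count was 2 (1.25%), with 1.96% of all genes, so it moved with that of the whole array.

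Of the 7 called members, 5 were expressed in both wild-type tissues. Of the 22 *fbxa* genes expressed in both wild-type tissues, 5 (22.7%) were called up in *lin-54(n2990)* embryos, against 340 of 4077 such genes (8.34%) over the array. Their median log2 change was 0.52 and 20 of the 22 (90.9%) were higher in the mutant. Over all such genes the median was 0.23 and 74.2% were higher. Of the 15 members expressed in embryos only, 1 (6.67%) was called up, against 5.37% of all such genes, and their median change was -0.11. Of the 12 expressed in germlines only, 0 were called up, against 6.41% of all such genes, and their median change was 0.11. Over the 34 members expressed in wild-type germlines the share called up was 14.7%, against 8.19% of all such genes. Of the 111 expressed in neither tissue, 1 (0.901%) was called up, against 0.929%. Over all 170 probe sets the median change was 0.04, against 0.00 over all probe sets. These counts are descriptive.

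The *fbxb* family shifted further in the same embryos. Of 99 *fbxb* genes, 48 (48.5%) were called up and 0 down, with a median log2 change of 0.67 over the genes, and 41 of the 48 were among the 68 expressed in embryos only. Of 47 *fbxc* probe sets, 11 were called up and 0 down, with a median change of 0.26. The difference between the families was not tested.

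**Figure D3:**
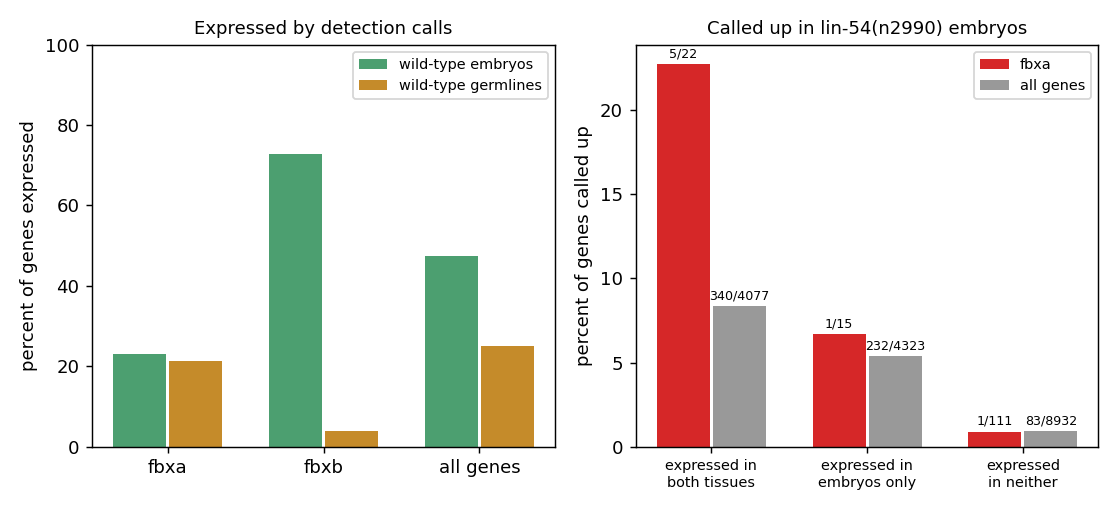
Left, percent of *fbxa*, *fbxb* and all genes expressed by detection score in wild-type embryos (green) and wild-type germlines (orange). Right, percent of genes called up in *lin-54(n2990)* embryos for *fbxa* (red) and all genes (grey) by wild-type expression class, with counts above the bars: 5 of 22 *fbxa* genes expressed in both tissues were called up, and 1 of 111 expressed in neither. The class expressed in germlines only is not drawn.

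In *lin-54(n3423)* germlines 0 *fbxa* genes were called up and 0 called down. Over all genes, 0.0849% were called up and 0.419% called down. Of the 170 probe sets, 2 were higher and 5 lower at an unadjusted limma p of at most 0.05, where 0.831% of all probe sets were higher and 1.67% lower, and the smallest adjusted p was 1.00. The groups did not overlap at 11 *fbxa* probe sets that were higher (6.47%, against 4.02% of all) and 6 that were lower (3.53%, against 3.15%). The median log2 change was 0.06, against 0.02 over all probe sets. The standard errors were wider than in embryos, with a median of 0.125 over the *fbxa* probe sets against 0.0956, and the changes ran between -0.90 and 0.67. The study's methods name no batch term. With the arrays numbered 1 fitted as a batch, 75 genes (0.424%) were called up and 247 (1.4%) down, close to the study's germline counts. That fit called 2 *fbxa* genes down (1.25%), so the count of 0 depended on the fit.

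The labels do not say whether same-numbered arrays of the 2 genotypes are pairs, and the replicate block was read as an alternative. With the replicate block 1 member was called up and 2 were called down in the germline, where 0.297% of all probe sets were called up and 0.984% down. *fbxa-13* on chromosome III gave 6.11, 5.89 and 5.77 in *lin-54(n3423)* germlines and 7.32, 6.67 and 6.47 in wild-type germlines. The groups did not overlap. The log2 change was -0.90 (SE 0.24), with a limma adjusted p of 1.00 without the block and 0.390 with it. The detection call was absent on 3 of 3 mutant arrays and present on 3 of 3 wild-type ones. By that call the mutant values are at background, and the size of the change is not well set.

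*fbxa-65* on chromosome V gave 5.24, 4.64 and 4.70 in *lin-54(n3423)* germlines and 5.88, 5.36 and 5.24 in wild-type germlines, a change of -0.64 (SE 0.25; limma adjusted p = 0.390 with the block). It was present on 6 of 6 germline arrays, and the highest mutant array met the lowest wild-type array. *fbxa-107*, called up in embryos, gave 9.63, 8.56 and 9.01 in *lin-54(n3423)* germlines and 8.70, 8.02 and 8.45 in wild-type germlines, a change of 0.67 (SE 0.32; limma adjusted p = 0.399 with the block). Its groups overlapped, but each mutant array was higher than the wild-type array of the same number.

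*fbxa-120* on chromosome X gave 6.95, 6.99 and 6.89 in *lin-54(n3423)* germlines and 7.84, 7.21 and 7.41 in wild-type germlines, a change of -0.55 (SE 0.18) that was not called. Like *fbxa-13* it was present on 0 of 3 mutant arrays and on 3 of 3 wild-type arrays. *fbxa-206* gave 9.90, 8.45 and 8.67 in *lin-54(n3423)* germlines and 9.66, 9.42 and 9.46 in wild-type germlines, a change of -0.51 (SE 0.39). Its mutant replicate 1 lay above every wild-type array and the other 2 mutant arrays lay below them. Without both arrays numbered 1, a setting chosen after seeing the data, *fbxa-206* was called down at -0.88, together with *fbxa-13* and *fbxa-65*. These are 1.875% of the *fbxa* genes, and that fit called 1.32% of all genes down. On the arrays numbered 1 the 8 oocyte and eggshell genes averaged 9.11 in *lin-54(n3423)* and 9.42 in wild-type. On the other arrays they averaged 11.19 to 11.25 in *lin-54(n3423)* and 11.32 to 11.59 in wild-type. The part of this gap in the *fbxa* values was not tested. Of 6 sheath and distal tip genes, the somatic cells attached to the germline, *inx-8* was called down and 4 were absent in wild-type.

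**Figure D4:**
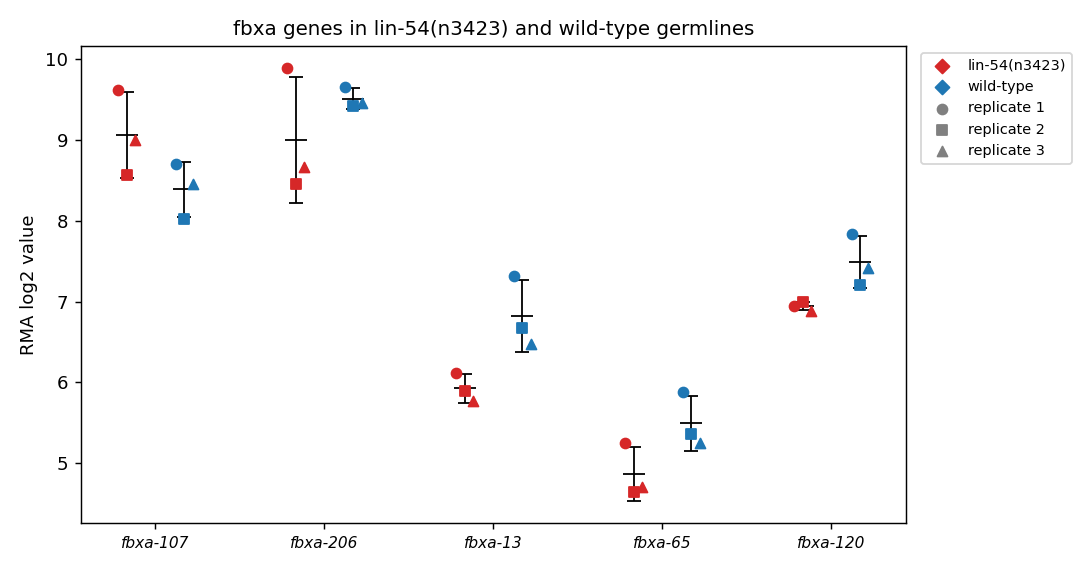
RMA log2 values of 5 *fbxa* genes in dissected germlines, *lin-54(n3423)* in red and wild-type in blue, marker shape giving the replicate number and bars the mean ± SD (n = 3). *fbxa-13*, *fbxa-65* and *fbxa-120* lie lower in the mutant, with mutant and wild-type arrays of *fbxa-65* meeting near 5.24, and *fbxa-206* replicate 1 stands above the other mutant arrays.

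The changes in the 2 tissues were set against each other within 1 limma fit over all 12 arrays, as the embryo change minus the germline change. By an unadjusted p of at most 0.01 and a difference of at least 1.5-fold, 6 of the 170 probe sets passed (3.53%), each of another gene. Over all probe sets 2.94% passed, so the share was near the background. They were *fbxa-206*, *fbxa-65*, *fbxa-13*, *fbxa-46*, *fbxa-120* and *fbxa-79*. The difference was 2.05 (SE 0.51; limma adjusted p = 0.234) for *fbxa-206*, with 1.55 in embryos and -0.51 in germlines. It was 1.57 (SE 0.42; limma adjusted p = 0.251) for *fbxa-65*, with 0.94 in embryos and -0.64 in germlines, and 1.10 (SE 0.29; limma adjusted p = 0.253) for *fbxa-13*, with 0.20 in embryos and -0.90 in germlines. None passed after adjustment, and tissue cannot be told apart from allele, temperature and labelling. With the replicate block 10 passed (5.88%), where 8.71% of all probe sets did. Of the 7 genes called up in embryos, *fbxa-206* alone had a negative log2 change in germlines, where 68.8% of *fbxa* probe sets and 56.6% of all probe sets had a positive one.

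**Figure D5:**
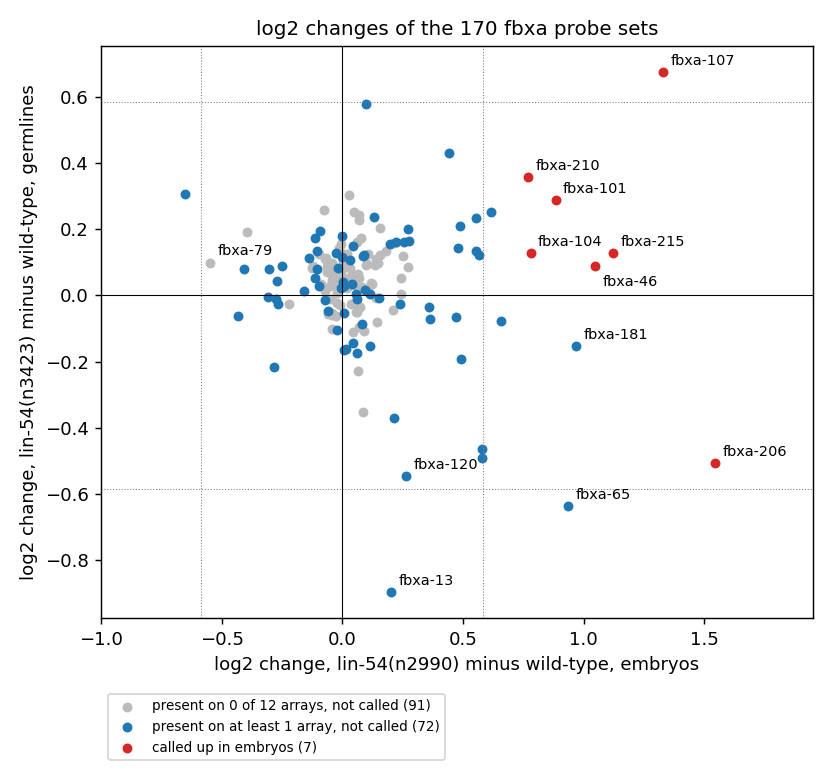
Each point is 1 of the 170 *fbxa* probe sets, with the log2 change in *lin-54(n2990)* embryos minus wild-type on the x axis and in *lin-54(n3423)* germlines minus wild-type on the y axis; dotted lines mark 1.5-fold. The 7 genes called up in embryos (red) lie to the right, with *fbxa-206* at 1.55 and -0.51, and most of the 91 uncalled probe sets present on 0 of 12 arrays (grey) lie near 0.

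F-box proteins act through the SCF core and its regulators, which were read as a fixed list of 36 genes, 33 of them on the array. In *lin-54(n2990)* embryos 4 were called up and 0 down, and the replicate block added *ned-8* (1.00), which encodes NEDD8, *skr-15* (0.84) and *rbx-2* (0.75) for 7 up. Over all genes 3.83% were called up, 4.85% with the block, and among genes expressed in both wild-type tissues 8.34% were. *skr-2*, a Skp1 adaptor, gave 11.70, 12.07 and 11.30 in *lin-54(n2990)* embryos and 10.13, 11.08 and 10.36 in wild-type embryos, a change of 1.16. *rbx-1*, the RING subunit, gave 13.05, 13.29 and 12.60 in *lin-54(n2990)* embryos and 11.81, 12.40 and 12.20 in wild-type embryos, a change of 0.84. The other 2 were *csn-3* (0.63), a subunit of the COP9 signalosome, which removes the ubiquitin-like NEDD8 from cullins, and *skr-8*, another Skp1 homolog (0.59), on 1 of its 2 x_at probe sets. *cul-1*, the cullin scaffold, was not called, with changes of 0.76 and 0.40 on its 2 probe sets. The median change of the list was 0.42. In *lin-54(n3423)* germlines 0 of 33 were called, and with the block *skr-13* was called up (0.63) while *skr-16* (-1.01) and *ubc-12* (-0.68), the NEDD8-conjugating enzyme, were called down. That fit called 0.362% of all genes up and 1.14% down.

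Of 11 other F-box genes with studied functions, 8 were on the array. In *lin-54(n2990)* embryos *ftr-1*, a relative of the hermaphrodite sex-determination gene *fog-2*, was called up, with 9.20, 9.37 and 8.90 against 8.11, 8.38 and 8.22 in wild-type embryos, a change of 0.92 (limma adjusted p = 0.0780). *fog-2* itself changed by 0.82 and was called only with the replicate block. None of the 8 was called in *lin-54(n3423)* germlines, with or without the block.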

How the data were processed

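RNA was hybridised to Affymetrix *C. elegans* Genome arrays, 3 per group. The authors deposited 1 table per tissue, with RMA log2 values and a present, marginal or absent detection call for each array; the submitters' processing notes name RMA, affy and limma. Intensities were background-corrected, normalised and summarised within each table, so low values are compressed and levels are not comparable between tables. The array fixes the precision through its 3 replicates. The authors' comparison columns (fold change, mean, p and adjusted p) were not used.

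Each tissue was fitted with limma 3.58.1 (R 4.3.3) over all 21541 probe sets, with Benjamini-Hochberg adjustment; any passing probe set called its gene. The smallest two-sided exact permutation p for 3 against 3 arrays is 0.1, so no single-gene permutation test was used. The contrast of tissues was 1 limma fit on both tables joined by probe set. The fit was tested on simulated data with independent noise on each array, which cannot speak to shifts that arrays share. Deviations of same-numbered arrays from their group means correlated at 0.246, 0.362 and 0.276 in embryos and 0.834, 0.363 and 0.392 in germlines. Differently numbered arrays were not compared this way. Over all probe sets, germline mutant replicates 1 and 2 correlated most with the wild-type array of their number. Germline mutant replicate 3 correlated at 0.988 with wild-type replicate 2 and 0.972 with wild-type replicate 3. In embryos mutant replicate 2 correlated most with the wild-type array of its number, and replicates 1 and 3 did not. The labels give no pairing, so a replicate block was fitted only as an alternative. Other alternatives were leaving out arrays, thresholds, filters, probe set classes, scaling, the limma prior and array weights.

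Genes were named by rule: those called in either fit, the 8 strongest wild-type signals per tissue, the largest differences between tissues, *fbxa-108* and members beside the thresholds; *fbxa-137* was chosen after its values were seen. The members and lists were chosen with earlier results of these data known. All 160 symbols matched RefSeq (WBcel235). Promoter motifs were not analysed here.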

Additional observations from a re-analysis of the deposited data

Results flagged for a closer look

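For 6 members the log2 change in *lin-54(n2990)* embryos differed from that in *lin-54(n3423)* germlines by the limma contrast of the 2 changes, before adjustment. They are 3.53% of the *fbxa* probe sets, near the 2.94% of all probe sets that passed, and none passed after adjustment. The difference, embryo change minus germline change, was 2.05 for *fbxa-206*, 1.57 for *fbxa-65*, 1.10 for *fbxa-13*, 0.96 for *fbxa-46*, 0.81 for *fbxa-120* and -0.65 for *fbxa-79*. Their limma adjusted p-values lay between 0.168 and 0.253. *fbxa-120* had a change of 0.26 in embryos and -0.55 in germlines, and *fbxa-46* had 1.05 in embryos and 0.09 in germlines, where it was absent on 6 of 6 arrays. *fbxa-79* had -0.55 in embryos and 0.10 in germlines and was present on 0 of 12 arrays. Without both germline arrays numbered 1, a setting chosen after seeing the data, the difference was 2.43 for *fbxa-206* and 1.57 for *fbxa-65*.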

How the results depend on the processing

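The embryo count of 7 genes called up ranged from 2 to 14 when 1 array was left out (1.25% to 8.75%, against 1.96% to 7.55% of all genes). It was 0 at an adjusted p of at most 0.05, against 0.289% of all genes. At an unadjusted p of at most 0.05 with no fold limit it was 24 (15%, against 13.8% of all genes). It was 4 at 2-fold (2.5%, against 1.3%) and 11 with arrays centred on their medians (6.88%, against 5.11%). With array weights, whose estimation did not converge fully, it was 13 (8.13%, against 8.62%). Without both arrays numbered 3, a setting chosen after seeing the data, it was 14 (8.75%, against 4.57%). Centring moved the median embryo change of all probe sets to 0.10 and that of *fbxa* to 0.14. The embryo count of 0 called down ranged from 0 to 1 (0.625%) with 1 array left out, where 0.407% to 5.97% of all genes were called down. It was 5 at an unadjusted p of at most 0.05 (3.125%, against 13.1% of all genes) and 2 with array weights (1.25%, against 7.17%). The germline count of 0 up was 1 under the block by replicate (0.625%, against 0.362% of all genes) and 1 with array weights (0.625%, against 0.481%). It was 2 at the looser p of at most 0.05 (1.25%, against 0.996%). The germline count of 0 down ranged from 0 to 2 (1.25%) over fits without 1 array, where 0.238% to 0.549% of all genes were called down. The replicate block gave 2 (1.25%, against 1.14% of all genes). The count was 5 at an unadjusted p of at most 0.05 (3.125%, against 1.87%) and 4 with array weights (2.5%, against 1.21%). It was 2 with arrays numbered 1 as a batch (1.25%, against 1.4%). Without both arrays numbered 1, a setting chosen after seeing the data, it was 3 (1.875%, against 1.32%). It was 1, *fbxa-13*, with probe sets named _at only, median centring, quantile normalisation or an intensity trend with a robust prior (0.625%, against 0.368% to 0.453%). The 6 members whose change differed between tissues became 10 with the replicate block (5.88%, against 8.71% of all probe sets). They became 0 at an adjusted p of at most 0.05 and 4 to 10 with 1 array left out. The shares over all probe sets were not counted for these last settings, so the counts have no background. The 37 genes detected in wild-type embryos became 58 when 1 present call on 1 array sufficed. The causes were not tested.

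Beyond the calls named with the replicate block in the report and the count of 10 above, the block changed no other *fbxa* call. For the changes of named members, 288 alternative values kept direction and side of the threshold, 58 gained and 30 lost the call, and none reversed. Faint signals, shared probes and 3 arrays per group limit these calls.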
